A study of Canis lupus familiaris with 18 samples.

Results

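Amino acid transporters of 6 solute carrier families (SLC1A, SLC3A, SLC7A, SLC36A, SLC38A and SLC43A) were measured in the fat of obese and lean dogs. A member was any probe set, that is, the set of short array probes that reads 1 transcript, to which the platform annotation gave a single gene symbol made of 1 of these family names and a number. The rule found 63 probe sets for 37 genes among 42924 probe sets that were not array controls. In all 15115 genes had a probe set with a single symbol. The animals were 9 intact female beagles, 4 years old, all kept on Purina Pro Plan Performance Formula. For 24 weeks 5 of them (dogs 2, 5, 6, 7 and 8) ate ad libitum and became obese, and 4 control dogs (1, 3, 4 and 9) were fed to hold their starting weight and stayed lean. Gonadal and subcutaneous fat of every dog was taken after an overnight fast, which gave 4 groups: gonadal ad libitum (5 arrays), gonadal control (4), subcutaneous ad libitum (5) and subcutaneous control (4). The study set obese against lean dogs and the visceral depot against the subcutaneous one.

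Cells take up amino acids through these carriers. The SLC1A family holds the glutamate transporters and the exchangers of small neutral amino acids. SLC38A members couple glutamine and alanine uptake to sodium. SLC7A members carry large neutral, cationic or cystine cargo, and many of them need the heavy chain SLC3A2 or SLC3A1 to reach the membrane. SLC36A members move small amino acids with protons, often out of lysosomes, and SLC43A members let branched-chain amino acids pass down their gradient. In fat, amino acids feed protein synthesis and lipid synthesis, and amino acid supply is read by the kinase complex mTORC1 and by the GCN2 and ATF4 response.

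Values are log2 expression after GCRMA, an array method that corrects background and normalizes across arrays. Log2 4 was used as a floor, and a probe set was tested where it reached the floor in at least 4 of the 18 arrays. Signals of different probe sets depend on the probes, so levels are compared between arrays and not between genes. The depot differences below are gonadal minus subcutaneous, the feeding differences are ad libitum minus control, and ± gives limma's standard error except where SD is written. Adjusted p-values are from limma with Benjamini-Hochberg adjustment over all 21484 probe sets tested. The adipocyte markers (7 of 7 on the array) had a median of log2 10.13 or higher in every array. Marker medians here and below are taken over the log2 levels of the markers, so the marker they read can change between arrays. In 5 arrays the markers of another tissue lay at least 2 log2 units above the median of the 18 arrays: skeletal muscle in gonadal ad libitum dog 2, subcutaneous ad libitum dog 7 and subcutaneous control dogs 3 and 4, and ciliated epithelium in gonadal ad libitum dog 6 and subcutaneous control dog 4. Per the labels only the subcutaneous arrays had been submitted once before, so depot and array batch cannot be told apart.

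Most of these transporters gave no signal above the floor in dog fat. Of the 63 probe sets, 35 (55.6%) lay below log2 4 in all 18 arrays, against 43.2% of all probe sets on the array, and their values ran from log2 1.26 to 3.77. For 19 of the 37 genes every probe set lay there. In the SLC7A family these were SLC7A3, SLC7A4, SLC7A5, SLC7A6, SLC7A8, SLC7A9, SLC7A10, SLC7A11 and SLC7A14, that is 9 of 11 genes. SLC7A5, the light chain of the large neutral transporter LAT1, ran from log2 1.89 to 2.83 over all arrays. SLC7A8, the light chain of LAT2, ran from 2.34 to 2.65. SLC7A10, the small neutral exchanger known as an adipocyte surface marker in mouse and human, ran from 2.15 to 3.18. SLC7A11, the cystine and glutamate exchanger, ran from 1.97 to 3.64. A value below the floor says that the probe set was not above it, not that the transcript was absent.

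The glutamate transporters SLC1A2 and SLC1A6, known from brain, were below the floor in all arrays, as were SLC36A1, SLC36A2 and SLC36A3. These 3 proton-coupled carrier genes are direct neighbours among the protein-coding genes in the RefSeq annotation of the dog genome (assembly UU_Cfam_GSD_1.0). In the SLC38A family the low genes were SLC38A3, SLC38A4, SLC38A7, SLC38A8 and SLC38A11. Among protein-coding genes SLC38A1 and SLC38A2 are direct neighbours and 1 gene separates SLC38A2 from SLC38A4, and the brightest probe sets of SLC38A1 and SLC38A2 were at or above the floor in all 18 arrays. SLC38A7 exports glutamine from lysosomes and ran from log2 2.02 to 2.10. The other low probe sets belong to genes that another probe set detected in some or all arrays, for example SLC43A2, which had 3 low probe sets and 1 at or above the floor throughout.

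Another 7 probe sets reached the floor in 1 to 3 arrays and were not tested. They hold both heavy chains. SLC3A2 reached log2 4.72 in gonadal fat of ad libitum dog 5, 4.55 in gonadal fat of control dog 4 and 4.40 in subcutaneous fat of ad libitum dog 2. A second SLC3A2 probe set was also highest in gonadal fat of ad libitum dog 5, at 4.02. SLC3A1 reached log2 4.45 in gonadal fat of ad libitum dog 6, and 4.52 and 4.01 in subcutaneous fat of control dogs 1 and 3. The cationic transporter SLC7A1 passed the floor once, at 4.28 in subcutaneous fat of control dog 1, and SLC36A4 once, at 4.21 in gonadal fat of ad libitum dog 8. These single values lay in both depots and in both feeding groups. The brightest SLC3A2 probe set averaged 3.47 and 3.30 in gonadal fat of ad libitum and control dogs, against 3.10 and 2.43 in subcutaneous fat. These means are all below the floor, and no difference of these probe sets was tested. The last 2 of the 7 were extra probe sets of SLC1A4 and SLC38A1.

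**Figure D1:**
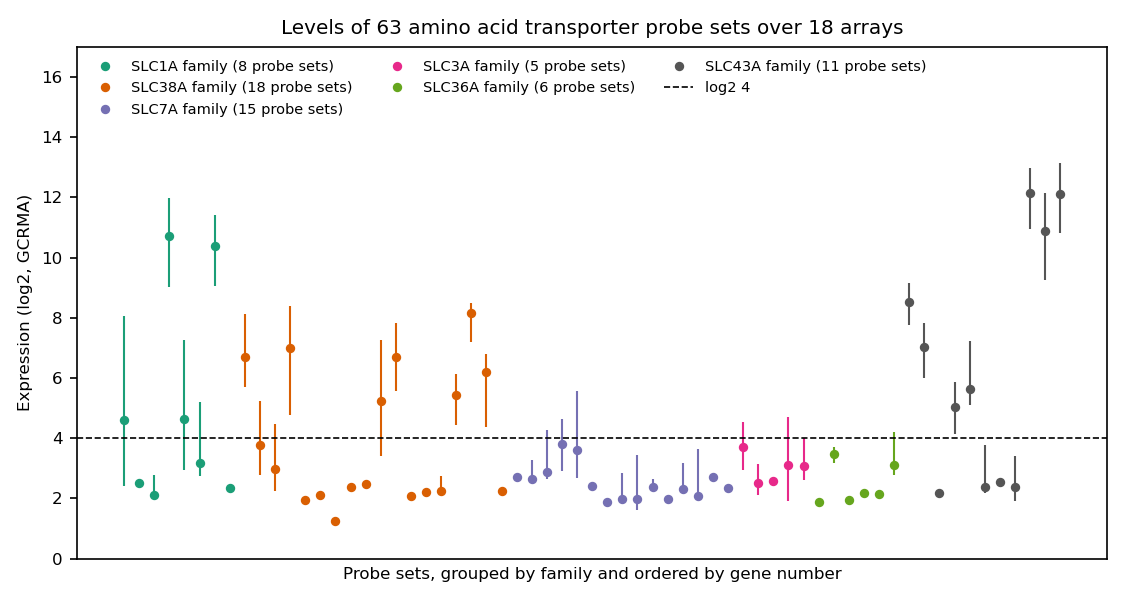
Log2 expression of the 63 transporter probe sets, grouped by family along the horizontal axis. Points are means over 18 arrays, lines run from the lowest to the highest array, and the dashed line marks log2 4. Of the probe sets, 35 lie wholly below the line.

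What remained were 21 probe sets of 14 genes (33.3% of the members, against 50.1% of all probe sets). They were SLC1A1, SLC1A3, SLC1A4 and SLC1A5, the 6 SLC38A genes SLC38A1, SLC38A2, SLC38A5, SLC38A6, SLC38A9 and SLC38A10, the single SLC7A gene SLC7A2, and all 3 SLC43A genes. No SLC3A or SLC36A gene was tested. The 14 genes are described by the probe set with the highest mean, and 15 of the 21 probe sets were at or above the floor in every array.

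**Figure D2:**
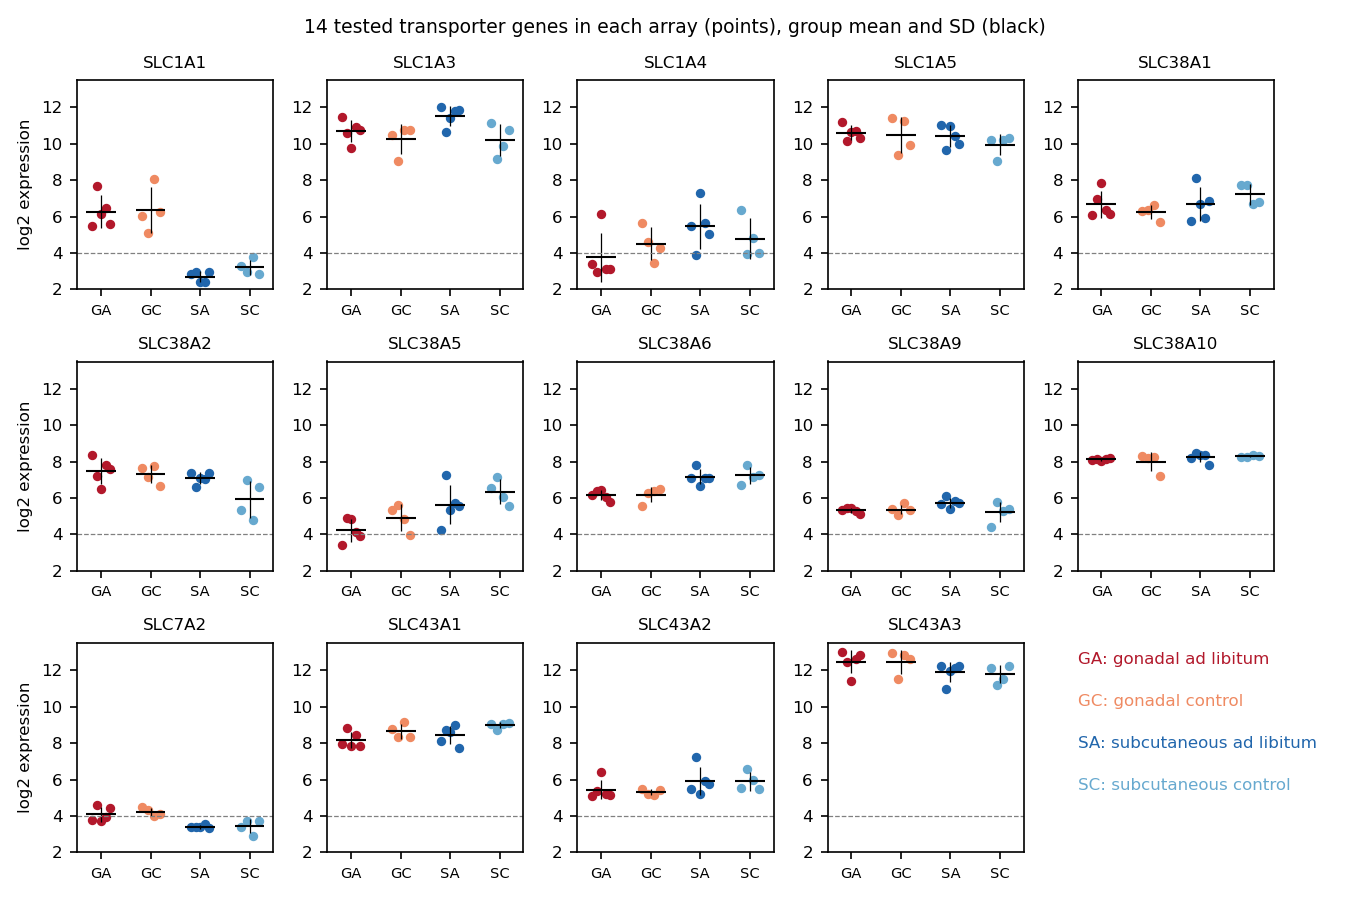
Log2 expression of the 14 tested genes in each array, with the group mean (bar) and SD (line) over 5 ad libitum or 4 control dogs. SLC1A1 lies above the dashed floor of log2 4 in all gonadal arrays and below it in all subcutaneous arrays, while the feeding groups within a depot overlap for every gene.

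Between depots, 3 genes passed in ad libitum dogs, SLC1A1 and SLC7A2 higher and SLC38A6 lower in gonadal fat, and in control dogs SLC1A1 and SLC38A6 passed in the same directions. These are 3 of 21 probe sets where 7.19% of all tested probe sets passed in ad libitum dogs, and 2 of 21 where 2.92% passed in control dogs. The SLC1A1 and SLC7A2 probe sets that passed reached the floor in gonadal arrays only, so they entered the test through the depot where they are high, and the counts are a description that does not set the transporters apart from other probe sets. The median difference over the 14 genes was -0.19 in ad libitum dogs and -0.13 in control dogs, against -0.02 and 0.02 over 8650 genes.

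SLC1A1 encodes a high-affinity carrier for glutamate, aspartate and cysteine, and it differed most between depots of all members. In ad libitum dogs 2, 5, 6, 7 and 8 it stood at log2 5.46, 7.70, 6.13, 6.46 and 5.59 in gonadal fat, against 2.83, 2.95, 2.40, 2.40 and 2.96 in subcutaneous fat. Control dogs 1, 3, 4 and 9 had 6.01, 5.10, 8.07 and 6.27 in gonadal fat, against 3.27, 2.94, 3.79 and 2.87 in subcutaneous fat. Every gonadal array lay above the floor and every subcutaneous array below it, so the depots did not overlap. The 9 arrays at or above the floor are thus the 9 gonadal ones, and the gene passed the filter through the depot where it is high. The difference was 3.56 ± 0.47 in ad libitum dogs (adjusted p = 0.000372, and 0.00175 with no filter) and 3.15 ± 0.52 in control dogs (adjusted p = 0.00423). With the subcutaneous mean set to the floor this is at least 4.81-fold higher in gonadal fat of ad libitum dogs and at least 5.14-fold higher in that of control dogs. The gene was higher in gonadal fat in 9 of 9 dogs. Without the 5 arrays of other tissue, which leaves 2 subcutaneous control arrays, the control difference was 3.29 with an adjusted p = 0.0544.

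Markers of mesothelium, the cell layer over visceral fat, moved with SLC1A1. Of 5 markers 2, UPK3B and WT1, were on the array, and their median was log2 5.81 to 9.55 in gonadal ad libitum arrays and 6.43 to 8.08 in gonadal control arrays, against 3.05 to 3.27 and 2.83 to 7.31 in the subcutaneous arrays of the same feeding groups. The single high subcutaneous array, control dog 4 at 7.31, had SLC1A1 at 3.79, which is the highest subcutaneous value and still below the floor. The part of mesothelium in the SLC1A1 difference was not tested. In whole tissue, fewer cells of a type and less RNA per cell cannot be told apart, here and in all results that follow.

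**Figure D3:**
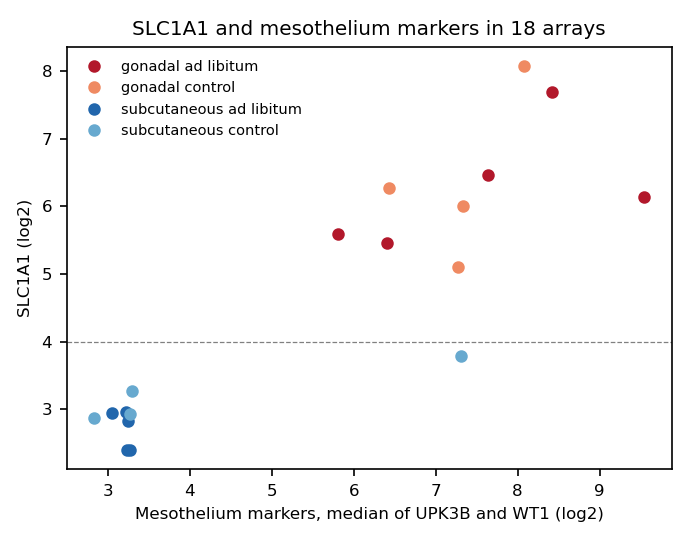
SLC1A1 (vertical axis, log2) against the median of the mesothelium markers UPK3B and WT1 (horizontal axis, log2) in 18 arrays, coloured by group. Gonadal arrays sit at the upper right, and 1 subcutaneous control array has markers at 7.31 with SLC1A1 at 3.79.

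SLC38A6, a little-studied relative of the sodium-coupled glutamine carriers, was lower in gonadal fat. Its values were log2 6.18, 6.40, 6.43, 6.06 and 5.80 in gonadal fat of ad libitum dogs 2, 5, 6, 7 and 8, against 7.13, 7.83, 6.69, 7.08 and 7.12 in subcutaneous fat. Those of control dogs 1, 3, 4 and 9 were 5.56, 6.28, 6.40 and 6.50 in gonadal fat, against 6.73, 7.81, 7.13 and 7.28 in subcutaneous fat. No gonadal array reached the lowest subcutaneous one, and all 9 dogs had the lower value in gonadal fat. The medians of 5 progenitor and stroma markers averaged log2 13.17 in gonadal fat of both ad libitum and control dogs, against 14.07 in subcutaneous fat of ad libitum dogs and 14.78 in that of control dogs. In ad libitum dogs the gap was that of the collagens COL1A1 (12.55 in gonadal against 14.12 in subcutaneous fat) and COL3A1 (13.28 against 14.49). PDGFRA (7.45 against 7.66), DCN (15.02 against 15.04) and LUM (13.64 against 13.61) hardly differed, so in these dogs the gap does not measure stroma as a whole. In control dogs all 5 markers had the lower mean in gonadal fat, COL1A1 (12.79 against 14.96) and COL3A1 (13.36 against 14.82) by the most. There PDGFRA averaged 7.59 against 8.20, DCN 15.11 against 15.41 and LUM 13.86 against 14.11. The medians of 11 macrophage markers averaged 8.12 in gonadal fat of ad libitum and 8.17 in that of control dogs, against 8.65 and 8.96 in subcutaneous fat. The 2 arrays highest in SLC38A6, subcutaneous fat of ad libitum dog 5 and of control dog 3, were also the 2 highest in the stroma markers, at 15.34 and 15.28. The part of these cells in the SLC38A6 difference was not tested. The difference was -0.998 ± 0.24 in ad libitum dogs (adjusted p = 0.0200) and -1.05 ± 0.27 in control dogs (adjusted p = 0.0444). Leaving out dog 2, 5, 7 or 8 ended the ad libitum call (adjusted p = 0.0535 to 0.0946), and leaving out dog 1, 2, 3, 4, 7, 8 or 9 the control call (0.0609 to 0.161). Both were lost without the arrays of other tissue (-1.11, adjusted p = 0.0578 in ad libitum dogs, and -0.82, adjusted p = 0.292 in control dogs). The control call was also lost with no filter (adjusted p = 0.0917), with only the arrays of the comparison (0.0976) and with the RNA length signal of the arrays as a covariate (-0.84, adjusted p = 0.245). That signal, the actin 3' minus 5' control signal, averaged 4.75 in subcutaneous and 2.91 in gonadal control arrays. In control dogs the covariate and depot therefore cannot be fully told apart. The GAPDH 3' minus 5' control signal differed less between these groups, at 2.52 ± 0.28 in subcutaneous and 2.32 ± 0.40 in gonadal control arrays (SD). The control depot calls over all probe sets also fell, from 627 to 199 with the actin covariate and to 200 without the arrays of other tissue.

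SLC7A2 carries cationic amino acids such as arginine and lysine into cells, and lay close to the floor. Its values were log2 3.78, 4.63, 3.71, 3.95 and 4.46 in gonadal fat of ad libitum dogs 2, 5, 6, 7 and 8, against 3.37, 3.41, 3.39, 3.59 and 3.32 in subcutaneous fat. For control dogs 1, 3, 4 and 9 the values were 4.50, 4.31, 3.98 and 4.10 in gonadal fat, against 3.39, 3.73, 2.93 and 3.73 in subcutaneous fat. All 9 dogs had the higher value in gonadal fat and the depots did not overlap within a feeding group, but all subcutaneous values are below the floor, as are 4 of the 9 gonadal ones. The floor was reached in 5 gonadal arrays, those of ad libitum dogs 5 and 8 and control dogs 1, 3 and 9, and in 0 subcutaneous arrays. The probe set therefore entered the test through the depot where it is high, and its call is not independent of the filter. The difference was 0.69 ± 0.20 in ad libitum dogs (adjusted p = 0.0434) and 0.78 ± 0.22 in control dogs (adjusted p = 0.0644). With the subcutaneous values set to the floor and the gonadal ones left as measured, the ad libitum difference is 1.08-fold. With the dog as a fixed block the ad libitum difference had an adjusted p = 0.0502, and with the dog as a random block the control difference had an adjusted p = 0.0325. The ad libitum call was also lost without dog 1, 2, 3, 5, 7, 8 or 9 (adjusted p = 0.0501 to 0.188), and with no filter (0.0699), only the arrays of the comparison (0.0718), quantile normalization (0.0779) or median centring (0.0791). A second SLC7A2 probe set was higher in gonadal fat in 8 of 9 dogs, with differences of 0.45 ± 0.42 (adjusted p = 0.551) in ad libitum and 1.02 ± 0.47 (adjusted p = 0.232) in control dogs.

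**Figure D4:**
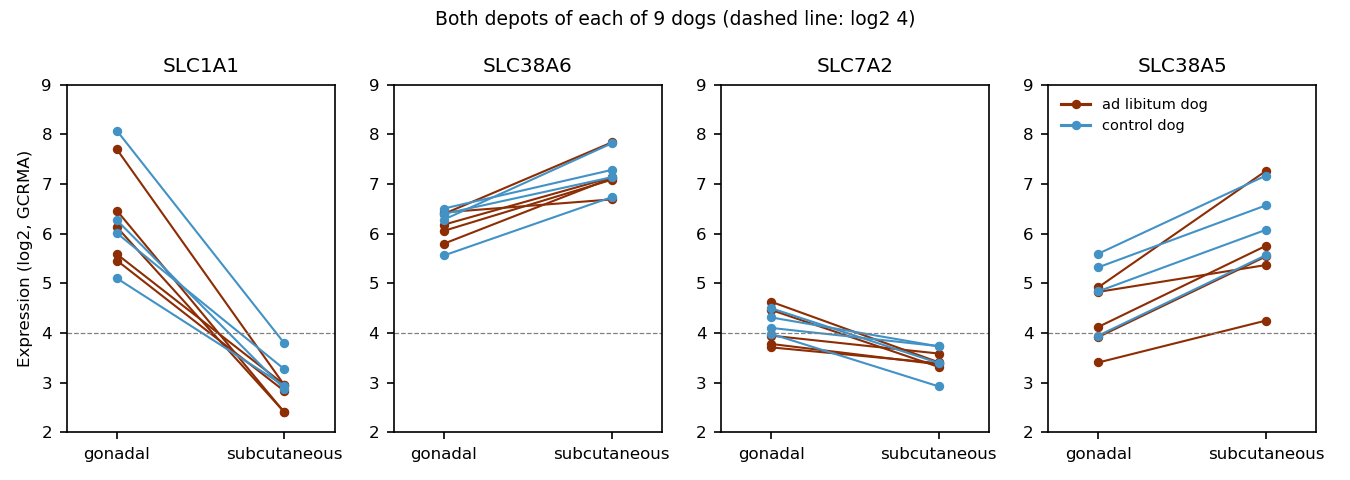
Log2 expression of SLC1A1, SLC38A6, SLC7A2 and SLC38A5 in both depots of each of 9 dogs, with a line joining the depots of a dog. All 9 lines fall towards subcutaneous fat for SLC1A1 and SLC7A2, and all 9 climb for SLC38A6 and SLC38A5.

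SLC38A5, a carrier of glutamine, serine and glycine, was lower in gonadal fat in 9 of 9 dogs. It stood at log2 3.41, 4.92, 4.83, 4.12 and 3.92 in gonadal fat of ad libitum dogs 2, 5, 6, 7 and 8, against 4.25, 7.26, 5.37, 5.75 and 5.54 in their subcutaneous fat. In control dogs 1, 3, 4 and 9 it stood at 5.32, 5.60, 4.84 and 3.95 in gonadal fat, against 6.57, 7.17, 6.08 and 5.57 in subcutaneous fat. The dogs differ widely in level, and the depots overlap as groups while each dog shows the same order. Without a block for the dog the differences of -1.40 ± 0.48 (adjusted p = 0.0874) and -1.42 ± 0.54 (adjusted p = 0.149) in ad libitum and control dogs did not pass. With the dog as a fixed block both passed, at adjusted p = 0.0102 and 0.0249, and as a random block the ad libitum difference passed at 0.0389. The highest SLC38A5 value, 7.26 in subcutaneous fat of ad libitum dog 5, lay in the array with the highest T cell marker median (log2 6.51, 3 of 3 markers on the array), and also the highest macrophage (9.68) and stroma (15.34) medians. The next SLC38A5 value, 7.17 in subcutaneous fat of control dog 3, had a T cell median of 4.03 and a stroma median of 15.28. The T cell markers ran from 3.48 to 4.20 in gonadal ad libitum and 3.61 to 3.69 in gonadal control arrays, against 3.64 to 6.51 and 3.66 to 5.76 in the subcutaneous arrays of the same feeding groups, and the stroma and macrophage means are those given with SLC38A6. Their part in the result was not tested.

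SLC1A4 exchanges alanine, serine and cysteine. In gonadal fat of ad libitum dogs 2, 5, 6, 7 and 8 it stood at log2 3.41, 2.95, 6.15, 3.12 and 3.12, against 5.46, 3.87, 7.27, 5.67 and 5.07 in subcutaneous fat. In control dogs 1, 3, 4 and 9 it stood at 5.65, 4.63, 3.47 and 4.29 in gonadal fat, against 6.36, 3.96, 4.84 and 4.00 in subcutaneous fat. All 5 ad libitum dogs had the lower value in gonadal fat, with dog 6 high in both depots, while control dogs 3 and 9 went the other way. The gonadal values of the other 4 ad libitum dogs, and the gonadal ad libitum mean, are below the floor. The ad libitum difference did not pass (adjusted p = 0.143). With the 4 gonadal values set to the floor and the subcutaneous ones left as measured, the mean is 2.05-fold lower in gonadal fat. The control difference was -0.28 ± 0.77 (adjusted p = 0.879). With the dog as a fixed block the ad libitum difference had an adjusted p = 0.0150, and without the gonadal array of dog 6 an adjusted p = 0.0300.

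SLC38A2, a sodium-coupled carrier known to be induced when amino acids run short, was higher in gonadal fat in 8 of 9 dogs. It stood at log2 8.38, 7.21, 6.49, 7.84 and 7.58 in gonadal fat of ad libitum dogs 2, 5, 6, 7 and 8, against 7.38, 6.60, 7.10, 7.03 and 7.38 in subcutaneous fat. Control dogs 1, 3, 4 and 9 had 7.66, 7.15, 7.75 and 6.66 in gonadal fat, against 5.37, 6.97, 4.78 and 6.61 in subcutaneous fat. Control dogs 1 and 4 had the widest gaps. The difference was 0.40 ± 0.40 in ad libitum dogs (adjusted p = 0.587) and 1.37 ± 0.45 in control dogs (adjusted p = 0.101), and neither passed. With the RNA length signal as a covariate the control difference was 0.34 (adjusted p = 0.749), and that signal differs by depot in control dogs, as given with SLC38A6.

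SLC43A3 is grouped with the amino acid carriers by sequence and is known in human cells as a purine nucleobase transporter. Its 3 probe sets were each higher in gonadal fat in 8 of 9 dogs, with differences of 0.57 to 0.80 in ad libitum and 0.70 to 1.06 in control dogs, none of which passed. On the brightest of them the gonadal values were log2 13.00, 12.45, 11.40, 12.62 and 12.87 in ad libitum dogs 2, 5, 6, 7 and 8, against 12.24, 10.95, 11.95, 12.12 and 12.23 in subcutaneous fat. In control dogs 1, 3, 4 and 9 the gonadal values were 12.95, 11.51, 12.84 and 12.62, against 12.14, 11.20, 11.52 and 12.24 in subcutaneous fat. Dog 6 was the exception on all 3 probe sets, and its gonadal array is the one with ciliated-cell transcripts and has the lowest adipocyte marker median of the gonadal arrays (log2 10.38). The 5 arrays lowest in SLC43A3 are the 5 with the lowest adipocyte medians, namely gonadal fat of ad libitum dog 6 (10.38) and control dog 3 (10.69), and subcutaneous fat of ad libitum dog 5 (10.56) and control dogs 3 and 4 (10.13 and 10.65). Their part in the SLC43A3 values was not tested. SLC43A1, a facilitated carrier of branched-chain amino acids and phenylalanine, is separated from SLC43A3 by 1 protein-coding gene in the same annotation. It differed by -0.27 ± 0.25 (adjusted p = 0.555) in ad libitum and by -0.34 ± 0.28 (adjusted p = 0.533) in control dogs, so that these near neighbours differed with opposite signs, and none of these differences passed.

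The sodium-coupled glutamine carrier SLC38A1 and the branched-chain carrier SLC43A2 did not pass for depot in either feeding group. In ad libitum dogs SLC38A1 stood at log2 6.10, 6.95, 7.83, 6.36 and 6.13 in gonadal fat, against 5.77, 8.11, 6.71, 5.93 and 6.83 in subcutaneous fat of dogs 2, 5, 6, 7 and 8, and the difference was 0.0055 ± 0.42 (adjusted p = 0.996). Control dogs 1, 3, 4 and 9 had 6.32, 6.36, 6.62 and 5.69 in gonadal fat, against 7.71, 7.76, 6.70 and 6.78 in subcutaneous fat, a difference of -0.99 ± 0.47 (adjusted p = 0.247). SLC43A2 ranged over 5.16 to 5.46 in gonadal fat of control dogs, against 5.48 to 6.57 in subcutaneous fat (-0.59 ± 0.38, adjusted p = 0.406). In ad libitum dogs it ranged over 5.11 to 6.39, against 5.21 to 7.23 (-0.48 ± 0.34, adjusted p = 0.417), and dog 6 had the higher value in gonadal fat. Subcutaneous fat of ad libitum dog 5 had the highest value of both genes, SLC38A1 at 8.11 and SLC43A2 at 7.23, and it also had the highest T cell and macrophage marker medians (log2 6.51 and 9.68). The part of these cells was not tested.

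The other tested genes did not pass for depot. SLC1A5, an exchanger that brings glutamine into cells, differed by 0.18 ± 0.40 in ad libitum and 0.53 ± 0.44 in control dogs. SLC38A10 differed by -0.12 ± 0.19 and -0.30 ± 0.21, and SLC38A9, a lysosomal carrier that reports arginine to mTORC1, by -0.41 ± 0.21 and 0.15 ± 0.23. SLC1A3, a second glutamate carrier, differed by -0.83 ± 0.42 in ad libitum and 0.03 ± 0.47 in control dogs. The adjusted p of these 4 genes ran from 0.243 to 0.981.

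**Figure D5:**
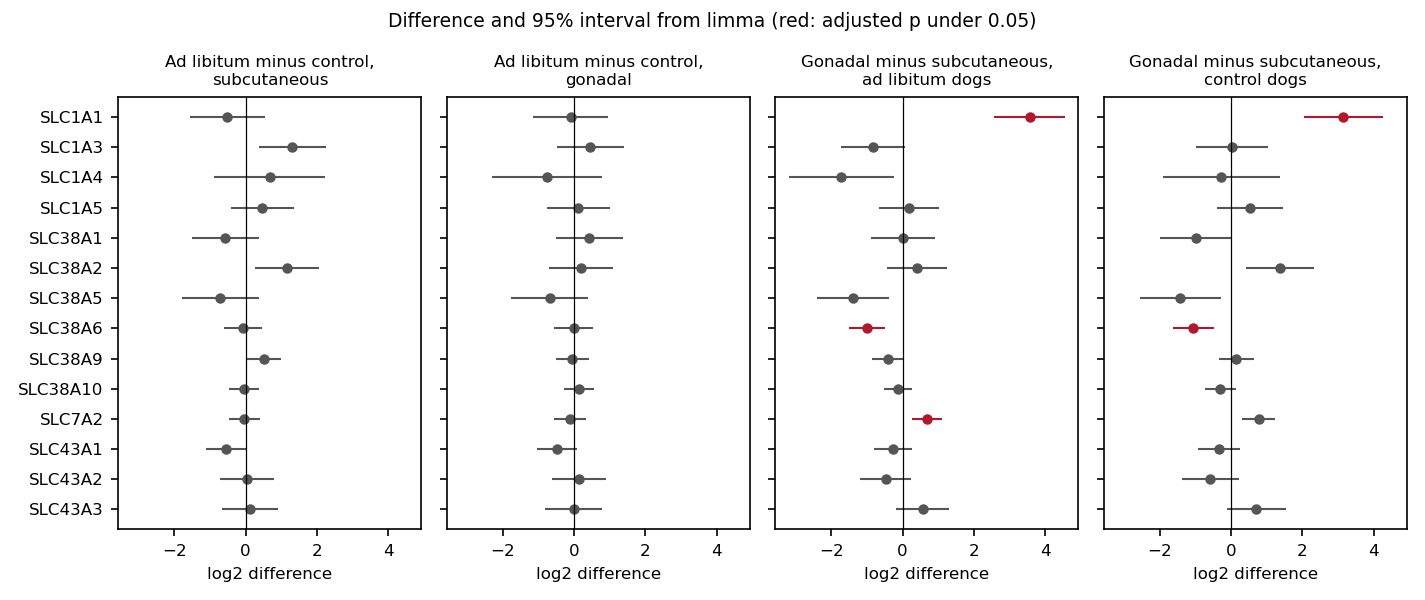
Difference on the log2 scale with its 95% interval from limma for the 14 tested genes, in the feeding comparison of each depot and the depot comparison of each feeding group. Red marks an adjusted p under 0.05, which SLC1A1 and SLC38A6 reach in both depot comparisons and SLC7A2 in ad libitum dogs, and no gene reaches in a feeding comparison.

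No transporter passed the test for ad libitum feeding in either depot. In subcutaneous fat 0 of 21 probe sets passed where 2.36% of all did, with 3 genes at an unadjusted p under 0.05 (SLC1A3, SLC38A2 and SLC38A9). Of all 21484 probe sets tested, 5085 had an unadjusted p under 0.05. The median difference over the 14 genes was -0.0013, against 0.00047 over all genes, with 7 positive and 7 negative. The 95% intervals extend a median of 0.84 log2 units to either side of the difference, so smaller changes could not be told from none for most of these genes.

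SLC1A3 had the smallest p for feeding. In subcutaneous fat it stood at log2 12.00, 10.62, 11.44, 11.77 and 11.84 in ad libitum dogs 2, 5, 6, 7 and 8, against 11.13, 9.17, 9.85 and 10.73 in control dogs 1, 3, 4 and 9. The ad libitum arrays were higher as a group, and dog 5 lay among the controls. The difference was 1.31 ± 0.45 (95% interval 0.37 to 2.26, adjusted p = 0.108). Without dog 5 it was 1.54 (adjusted p = 0.0434), and without the arrays of other tissue, which include the 2 lowest control arrays, 0.54 (adjusted p = 0.668). Among all probe sets this comparison gave 506 calls in the main fit, 2703 without dog 5 and 3 without those arrays. The adipocyte marker medians averaged 11.89 in subcutaneous fat of ad libitum dogs and 10.95 in that of control dogs. In the control arrays the median had the mean and range of PPARG alone (10.13 to 11.65). In ad libitum dogs 2 and 5 it equalled LEP (12.63 and 10.56). Between ad libitum and control dogs LEP differed most (11.67 against 8.96), and FABP4 (15.41 against 15.26) and ADIPOQ (14.85 against 14.45) least. The lowest medians were those of ad libitum dog 5 (10.56) and control dogs 3 and 4 (10.13 and 10.65), which also had the 3 lowest subcutaneous values of SLC1A3. The part of adipocytes in the SLC1A3 values was not tested. In gonadal fat SLC1A3 stood at 11.47, 10.60, 9.78, 10.94 and 10.73 in ad libitum dogs, against 10.45, 9.03, 10.75 and 10.76 in control dogs, a difference of 0.46 ± 0.45.

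SLC38A2 in subcutaneous fat, with the values given above, differed by 1.17 ± 0.42 between ad libitum and control dogs (95% interval 0.27 to 2.06, adjusted p = 0.123). The ad libitum dogs lay within 6.60 to 7.38, against 4.78 to 6.97 in the control dogs, so the groups overlap. With the RNA length signal as a covariate the difference was 0.46 (adjusted p = 0.613). That signal, the actin 3' minus 5' control signal, which grows as RNA gets shorter, averaged 3.49 ± 0.77 in ad libitum and 4.75 ± 1.02 in control subcutaneous arrays (SD, n = 5 and 4, two-sided exact permutation p = 0.0952). In gonadal fat SLC38A2 differed by 0.19 ± 0.42.

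SLC38A9 in subcutaneous fat stood at log2 5.67, 6.12, 5.38, 5.82 and 5.71 in ad libitum dogs 2, 5, 6, 7 and 8, against 4.44, 5.76, 5.30 and 5.38 in control dogs 1, 3, 4 and 9. Control dog 1 lay lowest, and without this dog the difference of 0.52 ± 0.22 (adjusted p = 0.173) was 0.26 (adjusted p = 0.443). In gonadal fat it stood at 5.32, 5.47, 5.46, 5.27 and 5.11 in ad libitum dogs, against 5.38, 5.06, 5.70 and 5.34 in control dogs, with a difference of -0.05 ± 0.22.

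SLC43A1 had a lower mean with ad libitum feeding in both depots, and did not pass in either. In subcutaneous fat it stood at log2 8.11, 8.72, 8.63, 9.02 and 7.75 in ad libitum dogs 2, 5, 6, 7 and 8, against 9.03, 8.74, 9.06 and 9.13 in control dogs 1, 3, 4 and 9 (-0.55 ± 0.27, adjusted p = 0.226). In gonadal fat it stood at 7.93, 8.82, 7.83, 8.44 and 7.85 in ad libitum dogs, against 8.80, 8.32, 9.14 and 8.33 in control dogs (-0.47 ± 0.27, adjusted p = 0.99994). Its other tested probe sets differed by -0.40 ± 0.31 and -0.44 ± 0.39 in gonadal fat, but by 0.10 ± 0.31 and -0.22 ± 0.39 in subcutaneous fat, so the subcutaneous sign was not shared by all probe sets.

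In gonadal fat 0 of 21 probe sets passed, where 0% of all did. An unadjusted p under 0.05 was found for 0 of the 14 genes, and for 531 of all 21484 probe sets tested. Among the members the smallest unadjusted p after SLC43A1 was that of a second SLC38A10 probe set. It stood at log2 6.79, 6.20, 6.26, 6.36 and 6.38 in ad libitum dogs 2, 5, 6, 7 and 8, against 6.42, 6.35, 6.33 and 4.36 in control dogs 1, 3, 4 and 9, so the difference of 0.53 ± 0.33 came from control dog 9 alone. The first SLC38A10 probe set was low in the same array, at 7.21, against 8.20 to 8.32 in the other gonadal control dogs. SLC38A5 differed by -0.69 ± 0.51 in gonadal and -0.71 ± 0.51 in subcutaneous fat. The glutamine exchanger SLC1A5 stood at 11.20, 10.15, 10.65, 10.71 and 10.32 in gonadal fat of ad libitum dogs, against 11.43, 9.36, 11.24 and 9.92 in control dogs. In subcutaneous fat it stood at 11.03, 9.64, 10.99, 10.44 and 10.01, against 10.21, 9.08, 10.22 and 10.32, and the feeding difference was 0.12 ± 0.42 in gonadal and 0.47 ± 0.42 in subcutaneous fat.

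Whether feeding acted differently in the depots was tested as the gonadal feeding difference minus the subcutaneous one. It passed for 0 of 21 probe sets, where 0% of all did. An unadjusted p under 0.05 was found for 0 of 14 genes, and for 1344 of all 21484 probe sets tested. Among the 14 genes the smallest p values were those of SLC38A9 (-0.56 ± 0.31), SLC38A2 (-0.97 ± 0.60), SLC38A1 (1.00 ± 0.63) and SLC1A4 (-1.44 ± 1.04), with adjusted p from 0.748 to 0.756. SLC1A1 differed by 0.41 ± 0.70 and SLC38A6 by 0.06 ± 0.36, with intervals of -1.07 to 1.89 and -0.70 to 0.82.

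Genes of the pathways that read or use amino acids were taken from lists. The lists were chosen with earlier results of these data known. Of the amino acid response genes, 12 of 20 were tested, and 2 rose with ad libitum feeding in subcutaneous fat, where 2.31% of all genes passed. SHMT2, a mitochondrial serine enzyme, averaged log2 8.98 ± 0.33 in ad libitum and 7.72 ± 0.32 in control dogs (SD, 1.26 ± 0.28, adjusted p = 0.0331), and ASNS, asparagine synthetase, averaged 10.23 ± 0.65 and 8.60 ± 0.50 (1.63 ± 0.40, adjusted p = 0.0447). Both calls were lost with the RNA length signal as a covariate (adjusted p = 0.153 and 0.235) and without the arrays of other tissue (0.231 and 0.323). The loss was not particular to these genes: over all probe sets the calls fell from 506 to 1 and 3 in these fits. For depot in ad libitum dogs, where 7.46% of all genes passed, both were lower in gonadal fat: SHMT2 by -1.70 ± 0.26 (adjusted p = 0.00135) and ASNS by -1.60 ± 0.37 (adjusted p = 0.0173). In control dogs, where 2.95% passed, DDIT3, a stress-induced transcription factor, was lower in gonadal fat (-1.62 ± 0.33, adjusted p = 0.0153). The list's median was 0.11 for feeding in subcutaneous fat, 0.02 for depot in ad libitum dogs and -0.28 in control dogs.

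Of the genes of amino acid sensing by mTORC1, 18 of 24 were tested, and 0 passed for feeding. SESN1, which encodes a sestrin, one of the proteins that restrain mTORC1, was higher in gonadal fat by 1.20 ± 0.19 in ad libitum dogs (adjusted p = 0.00145) and 0.84 ± 0.21 in control dogs (adjusted p = 0.0418). Its gonadal arrays ran from log2 10.35 to 11.32 and from 10.86 to 11.10, with means of 11.06 and 10.94, against means of 9.86 and 10.10 in the subcutaneous arrays. In ad libitum dogs 1 of the 18 was higher and 4 were lower in gonadal fat, where 7.46% of all genes passed. The lower ones were LAMTOR1 (-0.64 ± 0.14, adjusted p = 0.0133), LAMTOR2 (-0.44 ± 0.13, adjusted p = 0.0479) and LAMTOR5 (-0.44 ± 0.13, adjusted p = 0.0483), whose products help hold mTORC1 at the lysosome, and the S6 kinase gene RPS6KB1 (-0.60 ± 0.18, adjusted p = 0.0484). With the dog as a fixed block LAMTOR2 and RPS6KB1 did not pass (adjusted p = 0.0793 and 0.0563). In control dogs 1 of the 18, SESN1, passed, where 2.95% of all genes did. The list's median depot difference was -0.08 in ad libitum and -0.05 in control dogs.

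Of the genes of branched-chain amino acid breakdown, 20 of 23 were tested and 0 passed in any of the 5 comparisons. All 20 had a positive feeding difference in subcutaneous fat, with a median of 0.61 against 0.00047 over all genes. An unadjusted p under 0.05 was found for 7 of the 20, and for 5085 of all 21484 probe sets tested. In the list the smallest p values were those of the carboxylase subunit MCCC1 (0.73 ± 0.22, adjusted p = 0.0761) and the dehydrogenase component DBT (0.82 ± 0.30, adjusted p = 0.120). In control dogs 19 of 20 were higher in gonadal fat, with a median of 0.71, while in gonadal fat the median feeding difference was 0.05. These comparisons share the subcutaneous control arrays, 2 of which carry muscle transcripts. The adipocyte marker median ran from log2 10.56 to 12.63 in subcutaneous ad libitum arrays and from 10.13 to 11.65 in subcutaneous control arrays. The first 2 of these are levels of LEP and the last 2 levels of PPARG, so the ranges read different markers. The part of adipocytes in these differences was not tested.

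Of the glutamine, glutamate and glutathione enzymes, 7 of 14 were tested and 0 passed in any of the 5 comparisons. For depot in ad libitum dogs the smallest p values were those of GCLM, a subunit of the enzyme that starts glutathione synthesis (-0.90 ± 0.29, adjusted p = 0.0704), and CTH, which makes cysteine (0.74 ± 0.26, adjusted p = 0.0961). Of the amino acid transporters outside the 6 families, 7 of 18 were tested. For depot, 3 of the 7 passed in ad libitum dogs, where 7.46% of all genes did. In control dogs 1 of the 7 passed, where 2.95% of all genes did. The taurine transporter SLC6A6 was lower in gonadal fat in ad libitum dogs (9.57 ± 0.45 against 11.17 ± 0.43, SD, -1.60 ± 0.25, adjusted p = 0.00131) and in control dogs (9.62 ± 0.35 against 10.86 ± 0.32, SD, -1.24 ± 0.27, adjusted p = 0.0241). In ad libitum dogs the mitochondrial aspartate and glutamate carrier SLC25A12 (-0.82 ± 0.17, adjusted p = 0.00918) and the lysosomal cystine exporter CTNS (-0.56 ± 0.16, adjusted p = 0.0410) were lower too, and CTNS did not pass with the dog as a fixed block (adjusted p = 0.0747). The list's median depot difference was -0.44 in ad libitum and -0.32 in control dogs. The control calls of DDIT3, SESN1 and SLC6A6 were lost with the RNA length signal as a covariate (adjusted p = 0.0990, 0.280 and 0.0911) and without the arrays of other tissue (0.150, 0.120 and 0.0864). In control dogs that signal differs by depot, as given with SLC38A6. The control depot calls over all probe sets fell from 627 to 199 and 200 in these fits.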

How the data were processed

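Per the submitters' processing notes the authors made the deposited values with GCRMA, and they were taken as log2. No source used here states the base of the logarithm, the GCRMA version or its options. Each of the 18 arrays is 1 depot of 1 dog, and 0 columns were left unused. In limma 3.58.1 (R 4.3.3, statmod 1.5.0) the 4 group means were fitted over all arrays without a block for the dog (14 residual degrees of freedom). Tests were two-sided, with a Benjamini-Hochberg threshold of 0.05. For a bound, each array below log2 4 was set to 4 in a group whose mean was below 4, and the other group was left as measured.

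Per-array values are given for probe sets past the threshold or among the 4 smallest p of a comparison, and for the 6 genes with the highest means. Members and lists were chosen with earlier results of these data known. Depots pair through the dog, and their deviations from the group means correlated at -0.051 to 0.528, above 0.1 in 6 of 9 dogs. Alternatives were other filters, normalizations and moderation, a replicate block, an actin covariate, and fewer arrays. The fit was also run on simulated data with independent arrays and no dog effect, which cannot check it for depots paired by dog.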

Additional observations from a re-analysis of the deposited data

Results flagged for a closer look

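Of 56 groups of 4 or 5 arrays examined over the 14 tested genes, 5 held 1 array far from the others, where chance gives about 1 in 20 groups. In gonadal fat of ad libitum dog 6 SLC1A4 was highest at log2 6.15, with the other 4 dogs at 2.95 to 3.41. In the same array the branched-chain carrier SLC43A2 was highest at 6.39, with the others at 5.11 to 5.37. That array also carries ciliated-cell transcripts, whose part in these values was not tested. The glutamine exchanger SLC1A5 was lowest in subcutaneous fat of control dog 3, at 9.08, with the others at 10.21 to 10.32, and this array carries muscle transcripts. SLC38A10 was lowest in gonadal fat of control dog 9, at 7.21, with the others at 8.20 to 8.32. SLC43A3 was lowest in subcutaneous fat of ad libitum dog 5, at 10.95, with the others at 11.95 to 12.24.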

How the results depend on the processing

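The count of transporter genes (1 probe set per gene) past the threshold was 3 for depot in ad libitum dogs and ran from 1 to 3 when each dog was left out in turn. For depot in control dogs it was 2 and ran from 1 to 3 in the same way. It was 1 with the actin covariate, with only the arrays of the comparison or with no filter, and 0 without the arrays of other tissue, a fit that keeps 2 subcutaneous control arrays. The calls over all 21484 probe sets moved as well. With a dog left out they ran from 497 to 1620 in ad libitum dogs (1545 in the main fit). In control dogs they ran from 143 to 1050 (627 in the main fit). The control calls over all probe sets were 199 with the actin covariate and 412 with only the arrays of the comparison. They were 275 of 42924 with no filter and 200 without the arrays of other tissue. For feeding in subcutaneous fat the count of transporter genes was 0, and 1 without dog 5. Leaving out dog 5 also raised the calls of this comparison over all 21484 probe sets, from 506 to 2703. For feeding in gonadal fat and the interaction the count of transporter genes was 0 in every alternative run. SLC1A1 passed in ad libitum dogs in all 20 alternatives, with differences of 3.26 to 3.80, and its control call was lost only without the arrays of other tissue. The depot calls of SHMT2, SESN1, SLC6A6 and SLC25A12 in ad libitum dogs passed in all 20 alternatives too. The other calls of list genes were each lost in 3 to 13 alternatives, most often ASNS for feeding (13), SHMT2 for feeding (11), and LAMTOR2 and RPS6KB1 for depot (12 each). SLC7A2 in control dogs passed without dog 5 (adjusted p = 0.0474). No difference followed here changed sign under any alternative. Fits with the dog as a replicate block (paired by dog) gave 4 depot calls in ad libitum and 3 in control dogs, and changed no other call than those given with SLC7A2, SLC38A5, SLC1A4 and the list genes. Among all probe sets the fixed block gave 1832 ad libitum and 821 control depot calls, and the random block 2495 and 1346. The alternative without the gonadal array of dog 6 was chosen after seeing the data. It gave 4 depot calls in ad libitum and 3 in control dogs, with 1709 and 1264 calls over all probe sets. The GAPDH 3' minus 5' signal in place of actin differed by -0.01 between feeding groups in subcutaneous fat and by 0.08 in gonadal fat, against -1.27 and 0.40 for actin. The number of arrays, 4 or 5 a group, limits the precision, and the probe sets below log2 4 give no difference.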
